A study of Mus musculus with 4 samples.

Results

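The genes described here carry calcium in and out of the cytosol of heart muscle cells at each beat. They are the rows of the deposited table whose symbol is Atp2a2, Pln, Ryr2, Casq2, Slc8a1, Cacna1c, Cacna2d1, Hrc, Trdn or Jph2. All 10 were found, each once, among 55401 genes, and all 10 passed the filter on low counts. The libraries are poly(A) RNA sequencing of mouse heart labelled day 28. The MI libraries (n = 2) are from hearts after a ligation operation and are labelled with myocardial infarction, the death of heart muscle cut off from its blood supply. The Sham libraries (n = 2) are from hearts after an opening of the chest (thoracotomy) without a ligation. Whether the libraries of a group came from separate mice is not stated. No source used here gives strain, sex or age, and cyanidin, a plant pigment that the series title names as a treatment, is not analysed here. The design text speaks of infarcted tissue and normal left ventricle, but each library's own label says just heart, and which region it came from is unknown. The comparison asks how the transcripts of infarcted hearts differ from those of Sham hearts.

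In a heart muscle cell the beat starts with the L-type calcium channel, which lets a small amount of calcium in through the T-tubule membrane. That calcium opens the ryanodine receptor, and the sarcoplasmic reticulum releases a much larger store, held there by calsequestrin. Relaxation follows when the calcium pump SERCA2 returns calcium to the store and the sodium/calcium exchanger sends the rest out of the cell. Phospholamban slows the pump until it is phosphorylated, so the ratio of phospholamban to pump is a common measure of how strongly the pump is held back. That ratio is usually taken on protein, and transcripts alone were measured here.

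The total of the deposited estimated counts was 72857907 and 75979320 in MI replicates 1 and 2, against 72485370 and 66624106 in Sham replicates 1 and 2. All 12 sarcomere markers of heart muscle were detected in every library, with summed levels of 17214 and 17567 FPKM (fragments scaled for gene length and library size, a level per length) in MI, against 16741 and 18145 FPKM in Sham. Markers of other tissue stood out in 2 libraries. The 8 lung markers summed to 288 FPKM in MI replicate 1, against 0.17 FPKM in MI replicate 2 and 0.12 and 0.86 FPKM in Sham. Of them Sftpc, surfactant protein C, was at 122 FPKM in MI replicate 1 and at 0 in the other 3 libraries. Skeletal muscle markers (11) were low, but summed highest in MI replicate 1, at 18.3 FPKM. They summed to 6.07 FPKM in MI replicate 2 and to 5.15 and 9.59 FPKM in Sham. In Sham replicate 2, 8 atrial muscle markers summed to 5088 FPKM, against 158 FPKM in Sham replicate 1, and the MI libraries had 2648 and 1866 FPKM. Nppa made up 2632 and 1855 FPKM of the MI sums, while Myl7, the atrial myosin light chain, was at 1128 FPKM in Sham replicate 2 and at 1.20 FPKM or less in the other 3. Fibroblast markers (7) summed to 495 and 283 FPKM in MI, against 85.6 and 128 FPKM in Sham. In whole tissue, fewer heart muscle cells and less RNA per cell cannot be told apart.

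Among the calcium cycling genes Cacna2d1, an auxiliary subunit of the calcium channel, stood highest in MI relative to Sham, and Atp2a2, the pump gene, stood lowest. In edgeR's quasi-likelihood test 0 of the 10 passed an adjusted p under 0.05, as did 0% of the 18475 genes tested. At an unadjusted p under 0.05, 1 of 10 was higher in MI (Cacna2d1) and 1 lower (Atp2a2), where 7.12% of all genes tested were higher and 4.51% lower. The lower count was 0 of 10 without MI replicate 1 and without Sham replicate 1, so Atp2a2 did not pass there, and it was 2 of 10 without Sham replicate 2. DESeq2 called the same 2 genes in the same directions at an adjusted p under 0.05, where it called 4.39% of the 14535 genes to which it gave an adjusted p, 2.78% higher and 1.61% lower. The median log2 difference of the 10 genes was -0.18, against 0.0031 for all genes tested, and their differences spread from -0.58 to 1.37.

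**Figure D1:**
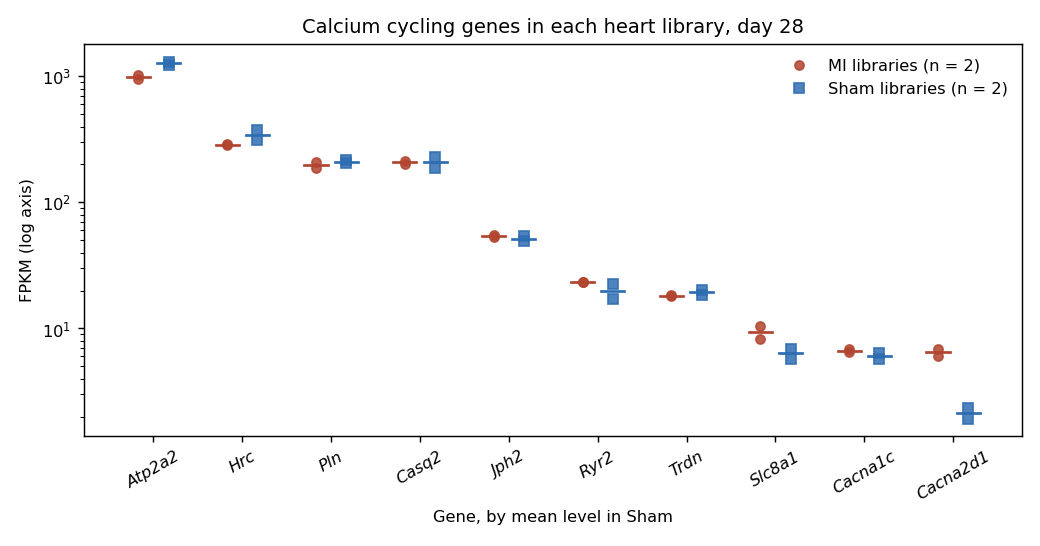
The level of each gene (FPKM, log axis) is drawn for every library, with MI left of Sham and a line at each group mean (n = 2). The pump gene Atp2a2 stands near 1000 FPKM and the channel subunits under 10 FPKM, and Cacna2d1 has the widest gap between groups, with 6.85 and 6.08 FPKM in MI and 2.32 and 1.93 FPKM in Sham.

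By level per length the order of the genes was nearly the same in both groups. In MI it ran from Atp2a2 (mean 988 FPKM) through Hrc (288), Casq2 (207), Pln (199), Jph2 (54.4), Ryr2 (23.5), Trdn (18.2), Slc8a1 (9.34) and Cacna1c (6.69) to Cacna2d1 (6.47). The MI libraries overlapped between Casq2 and Pln and between Cacna1c and Cacna2d1, so these neighbours could not be ordered. In Sham the means were 1267 FPKM for Atp2a2, 344 for Hrc, 211 for Pln, 209 for Casq2 and 51.6 for Jph2. They were 19.8 FPKM for Ryr2, 19.3 for Trdn, 6.33 for Slc8a1, 6.05 for Cacna1c and 2.13 for Cacna2d1. The Sham libraries overlapped between Pln and Casq2, Ryr2 and Trdn, and Slc8a1 and Cacna1c. Cacna2d1 thus lay apart below Cacna1c in Sham and beside it in MI. The 10 genes together took 1.038% and 1.004% of the estimated counts in MI, against 1.23% and 1.16% in Sham. Most of these counts were of Atp2a2 alone, with 493255 and 483069 in MI, against 625318 and 541774 in Sham. The summed share thus mainly follows that gene and does not describe the set as a whole.

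Atp2a2 encodes SERCA2, the pump of the sarcoplasmic reticulum (ENSMUSG00000029467, chromosome 5, 122453513 to 122502174, minus strand). Positions here are those of the deposited table, whose build is not named, and 8 of the 10 equal GRCm38 in GENCODE M21. Its level was 1018 and 958 FPKM in MI, against 1305 and 1229 FPKM in Sham. Every MI value was under every Sham value, and the gap between the groups exceeded the spread within either. As CPM (counts per library size after trimmed-mean, or TMM, scaling), it averaged 6072 ± 224 CPM in MI and 9091 ± 1053 CPM in Sham (SD, n = 2 each), a ratio of 0.668. The log2 difference was -0.58 ± 0.17 (SE; edgeR adjusted p = 0.348; DESeq2 adjusted p = 0.0201), and it stayed between -0.70 and -0.46 with any 1 library left out. On the FPKM scale the difference was smaller, at -0.36 ± 0.10 in limma on log2(FPKM + 1).

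Pln encodes phospholamban, the small membrane protein that holds the pump back (ENSMUSG00000038583, chromosome 10, 53337667 to 53345987, plus strand). Its level was 186 and 211 FPKM in MI, against 206 and 215 FPKM in Sham, so the groups overlapped. The CPM were 491 and 623 in MI, against 705 and 664 in Sham, with a log2 difference of -0.30 ± 0.17 (edgeR adjusted p = 0.556). Leaving out MI replicate 1 gave -0.13 and leaving out MI replicate 2 gave -0.47. Pln overlaps Cep85l and Gm47644, both read from the other strand, which reached at most 2.0 and 8.96 FPKM in a library. No source used here says if counting took strand into account, so reads of these overlapping genes may be split.

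The Pln to Atp2a2 ratio of FPKM was 0.183 and 0.220 in MI, against 0.158 and 0.175 in Sham. The groups did not overlap, with MI higher, although MI replicate 1 and Sham replicate 2 were close. The means were 0.202 ± 0.026 in MI and 0.167 ± 0.012 in Sham (SD, n = 2 each), a log2 difference of 0.27, or 20.7% higher in MI. An exact 2-sided permutation test gave p = 0.333, the smallest value 2 libraries against 2 can give (adjusted p = 0.461 over 18 ratios). The log2 difference was 0.41 without MI replicate 1, 0.14 without MI replicate 2 and 0.20 without Sham replicate 1. A ratio of FPKM within a library does not depend on the scaling between libraries. The higher ratio went with the lower Atp2a2 level: relative to the summed sarcomere markers, Atp2a2 was at 59.2 and 54.5 per 1000 in MI, against 77.9 and 67.7 in Sham. Pln on that scale was at 10.8 and 12.02 per 1000 in MI, against 12.3 and 11.9 in Sham, and its groups overlapped.

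Ryr2, the ryanodine receptor that releases the store (ENSMUSG00000021313, chromosome 13, 11553102 to 12106945, minus strand), was at 23.5 and 23.6 FPKM in MI, against 22.4 and 17.2 FPKM in Sham. The MI libraries were nearly equal, while Sham replicate 2, the library with atrial transcripts, was the lowest. The log2 difference was 0.019 ± 0.22 (edgeR adjusted p = 0.98), with -0.22 without Sham replicate 2 and 0.31 without Sham replicate 1, so no direction can be given.

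Casq2 encodes calsequestrin, the protein that binds calcium inside the store (ENSMUSG00000027861, chromosome 3, 102086415 to 102146514, plus strand). Its level was 203 and 212 FPKM in MI, against 187 and 231 FPKM in Sham, with the MI libraries between the Sham libraries. On the CPM scale the MI libraries lay below Sham, at 531 and 620, against 634 and 706. The log2 difference was -0.22 ± 0.16 (edgeR adjusted p = 0.625). Trdn encodes triadin, which ties calsequestrin to the ryanodine receptor (ENSMUSG00000019787, chromosome 10, 33080554 to 33476709, plus strand). It was at 17.9 and 18.5 FPKM in MI, against 18.6 and 20.0 FPKM in Sham. The MI libraries lay just below the Sham libraries, with a log2 difference of -0.30 ± 0.14 (edgeR adjusted p = 0.48). Jph2 encodes junctophilin 2, which holds the store close to the T-tubule (ENSMUSG00000017817, chromosome 2, 163336242 to 163397993, minus strand). It was at 53.3 and 55.5 FPKM in MI, against 49.3 and 53.8 FPKM in Sham, so the groups overlapped on that scale. The CPM of Jph2 were 216 and 253 in MI, against 260 and 256 in Sham, and did not overlap. Its log2 difference was -0.14 ± 0.14 (edgeR adjusted p = 0.738).

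Hrc encodes the histidine-rich calcium binding protein, which lies inside the store and binds triadin and SERCA2 (ENSMUSG00000038239, chromosome 7, 45335290 to 45338974, plus strand). Its level was 285 and 291 FPKM in MI, against 378 and 311 FPKM in Sham. MI was under Sham in every library, and Sham replicate 1 stood apart above the rest. It averaged 748 ± 71.5 CPM in MI and 1046 ± 220 CPM in Sham (SD, n = 2 each), with a log2 difference of -0.48 ± 0.20 (edgeR adjusted p = 0.453). The difference came to -0.25 with Sham replicate 1 left out and to -0.68 with Sham replicate 2 left out.

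Set against the ryanodine receptor, its partners did not all stand in the same way. The Hrc to Ryr2 ratio was 12.1 and 12.3 in MI, against 16.9 and 18.0 in Sham, so the groups did not overlap and each was narrow. The Trdn to Ryr2 ratio was 0.764 and 0.785 in MI, against 0.829 and 1.16 in Sham. Both ratios had an exact 2-sided permutation p of 0.333 (adjusted p = 0.461). The Casq2 to Ryr2 ratio (8.65 and 8.98 in MI, against 8.34 and 13.4 in Sham) overlapped between groups. So did those of Jph2 to Ryr2 (2.27 and 2.35 in MI, against 2.20 and 3.12 in Sham) and of Cacna1c to Ryr2 (0.292 and 0.276 in MI, against 0.258 and 0.367 in Sham). In each of these 3 ratios Sham replicate 2 was the highest library, and without it the MI mean lay above Sham replicate 1 (log2 differences of 0.079 for Casq2, 0.069 for Jph2 and 0.14 for Cacna1c).

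**Figure D2:**
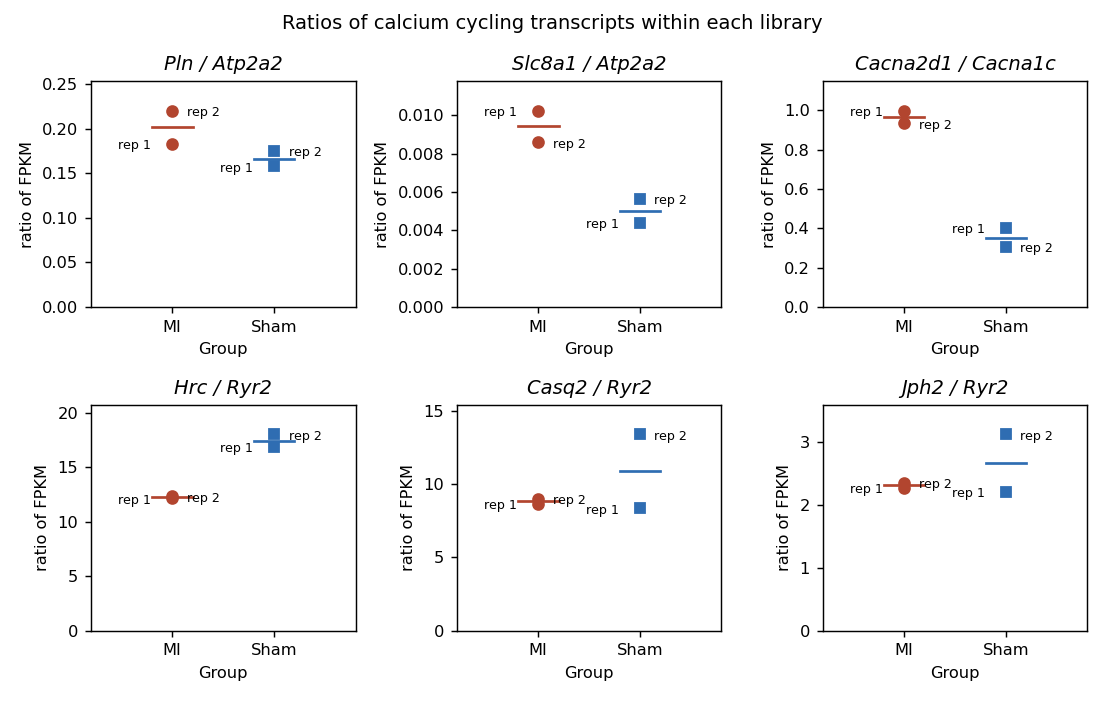
Each panel shows 1 ratio of FPKM in each library, MI left of Sham, on an axis that starts at 0, with a line at the group mean (n = 2). The MI and Sham libraries are apart for Pln to Atp2a2, Slc8a1 to Atp2a2, Cacna2d1 to Cacna1c and Hrc to Ryr2, and overlap for Casq2 to Ryr2 and Jph2 to Ryr2, where Sham replicate 2 is highest.

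Cacna1c encodes the pore of the L-type calcium channel (ENSMUSG00000051331, chromosome 6, 118587240 to 119196890, minus strand). It was at 6.86 and 6.51 FPKM in MI, against 5.77 and 6.33 FPKM in Sham, while its CPM were 143 and 152 in MI, against 157 and 155 in Sham. The MI libraries thus lay just above Sham on one scale and just below it on the other. Its log2 difference was -0.076 ± 0.12 (edgeR adjusted p = 0.844), less than 1 SE from 0.

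Cacna2d1 encodes the alpha2/delta 1 subunit, which helps bring the channel to the cell surface and changes its gating (ENSMUSG00000040118, chromosome 5, 15934691 to 16374511, plus strand). Its level was 6.85 and 6.08 FPKM in MI, against 2.32 and 1.93 FPKM in Sham. The lowest MI library lay well above the highest Sham library. It averaged 81.1 ± 0.36 CPM in MI and 31.3 ± 6.39 CPM in Sham (SD, n = 2 each), 2.59-fold higher in MI. The log2 difference was 1.37 ± 0.18 (edgeR adjusted p = 0.201; DESeq2 adjusted p = 2.94e-07), the 63rd smallest p of 18475. With any 1 library left out it was between 1.18 and 1.60.

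The ratio of Cacna2d1 to the pore gene Cacna1c was 0.999 and 0.934 in MI, against 0.402 and 0.305 in Sham. The groups were far apart for this pair of subunits (log2 difference 1.46; exact 2-sided permutation p = 0.333, adjusted p = 0.461). Cacna2d1 is also made by other cells, smooth muscle among them. Smooth muscle markers (6) summed to 140 and 84.5 FPKM in MI, against 66.8 and 126 FPKM in Sham, and overlapped between groups. The fibroblast marker sums given above, 495 and 283 FPKM in MI, were higher than in Sham in both libraries. They were highest in MI replicate 1, as the FPKM of Cacna2d1 was. The CPM of Cacna2d1 were nearly equal in the MI libraries, at 81.3 and 80.8. Endothelial markers (6) summed to 344 and 299 FPKM in MI, against 228 and 250 FPKM in Sham. Macrophage markers (6) summed to 169 and 98.9 FPKM in MI, against 78.0 and 91.9 FPKM in Sham. These 3 sums thus ran in the same direction as Cacna2d1. The part of other cells in its level was not tested.

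Slc8a1 encodes the sodium/calcium exchanger NCX1, the main way for calcium out of the heart muscle cell (ENSMUSG00000054640, chromosome 17, 81373105 to 81738377, minus strand). Its level was 10.4 and 8.24 FPKM in MI, against 5.73 and 6.93 FPKM in Sham. MI replicate 1, the library with lung transcripts, was highest, and the groups did not overlap. It averaged 177 ± 15.4 CPM in MI and 140 ± 8.41 CPM in Sham (SD, n = 2 each), 1.27-fold higher in MI. The log2 difference was 0.34 ± 0.14 (edgeR adjusted p = 0.443), between 0.26 and 0.44 with any 1 library left out. The exchanger to pump ratio, Slc8a1 to Atp2a2, was 0.0103 and 0.0086 in MI, against 0.0044 and 0.0056 in Sham. The 2 routes that clear calcium thus had a transcript ratio 88.7% higher in MI (exact 2-sided permutation p = 0.333, adjusted p = 0.461).

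The small differences depended on how libraries were scaled. The median log2 difference of all genes was 0.0031 with TMM, 0.26 when libraries were scaled to the sarcomere transcripts, 0.23 with library totals alone and 0.095 in limma on log2(FPKM + 1). The median of the 10 genes was -0.18, 0.074, 0.039 and 0.037 in the same order of settings. Relative to all genes it was -0.18, -0.19, -0.19 and -0.059. Atp2a2, Hrc, Pln and Trdn were negative under each of these scalings, and Cacna2d1, Slc8a1 and Ryr2 positive. Casq2 turned to 0.032 with sarcomere scaling, Cacna1c to 0.18, 0.15 and 0.13 and Jph2 to 0.12, 0.083 and 0.076 with sarcomere scaling, library totals and FPKM. On the CPM scale 2 of 10 genes had both MI libraries above both Sham libraries and 7 had both below, where 24.9% and 21.9% of all genes did (46.7% in either direction). The sarcomere markers Myh6, Tnnt2, Tnni3, Tpm1, Ldb3 and Tcap also lay below Sham on that scale. The other sarcomere markers overlapped between groups there. On the FPKM scale there were 4 above and 3 below, where 39% and 8.89% of all genes were (47.9% in either direction). Per sarcomere transcript, Trdn was at 1.04 and 1.05 per 1000 in MI, against 1.11 and 1.10 in Sham, and Jph2 at 3.09 and 3.16 in MI, against 2.95 and 2.96 in Sham. These 2 genes kept nearly the same share of muscle transcript in all 4 libraries.

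**Figure D3:**
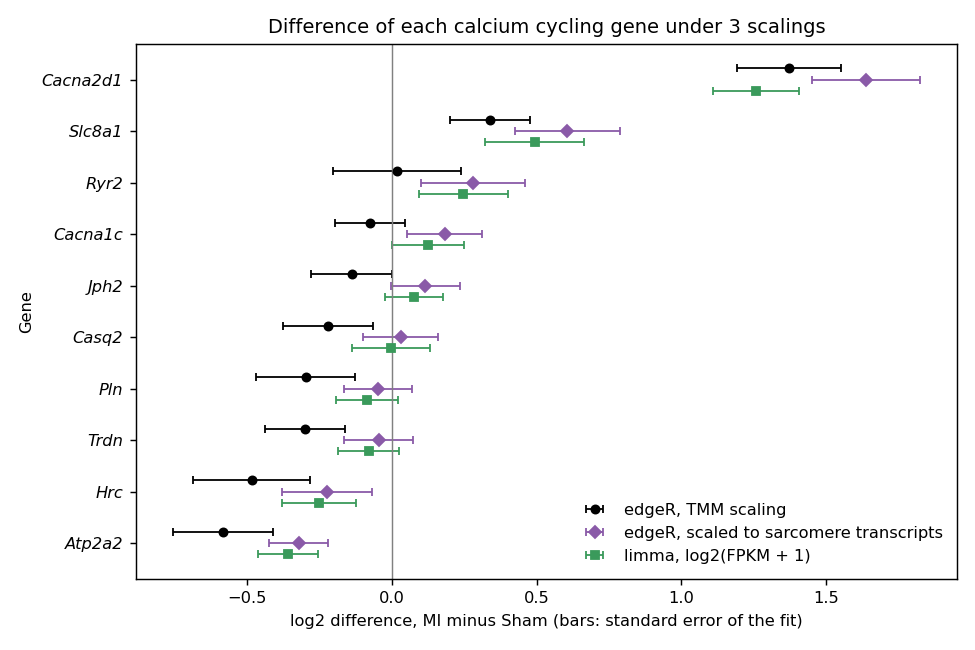
The log2 difference, MI minus Sham, of each gene is drawn with its standard error under TMM scaling, scaling to sarcomere transcripts, and limma on log2(FPKM + 1). Cacna2d1 (1.37, 1.64 and 1.26) and Slc8a1 (0.34, 0.61 and 0.49) lie right of 0 in each, Atp2a2 (-0.58, -0.32 and -0.36) and Hrc (-0.48, -0.22 and -0.25) left of it, and Casq2, Cacna1c and Jph2 have points on either side.

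The promoters of these genes differ in base composition, and 3 are shown because Cacna2d1 stood farthest from Sham while Casq2 and Pln did not stand apart on the FPKM scale. RefSeq start sites (GRCm38.p6) matched 8 of the 10 genes, by 11 windows of 250 bases before to 50 after a start. Capitals mark matches on either strand to the GC box (GGGCGG) in Cacna2d1 and to the binding motif of the muscle factor MEF2 in Casq2. In Pln they mark the letters of the TATA box (TATAAA) first and of a GATA motif (AGATAA) second. These Pln matches begin at positions -219 and -183 relative to the RefSeq start. The windows are chr5:15934441-15934740 for Cacna2d1, chr3:102086165-102086464 for Casq2 and chr10:53337436-53337735 for Pln, all on the plus strand.
Cacna2d1: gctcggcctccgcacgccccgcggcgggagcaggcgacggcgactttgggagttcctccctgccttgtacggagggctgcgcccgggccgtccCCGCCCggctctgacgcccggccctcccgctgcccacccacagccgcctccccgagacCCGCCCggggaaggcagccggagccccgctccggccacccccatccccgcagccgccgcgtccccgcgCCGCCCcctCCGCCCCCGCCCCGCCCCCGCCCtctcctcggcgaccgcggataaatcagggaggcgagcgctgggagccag
Casq2: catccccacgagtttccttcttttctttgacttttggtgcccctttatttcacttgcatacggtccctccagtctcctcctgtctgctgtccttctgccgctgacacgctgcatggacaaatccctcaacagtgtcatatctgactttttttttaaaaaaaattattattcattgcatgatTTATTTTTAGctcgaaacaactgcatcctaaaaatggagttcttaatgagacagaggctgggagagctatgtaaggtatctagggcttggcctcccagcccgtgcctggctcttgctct
Pln: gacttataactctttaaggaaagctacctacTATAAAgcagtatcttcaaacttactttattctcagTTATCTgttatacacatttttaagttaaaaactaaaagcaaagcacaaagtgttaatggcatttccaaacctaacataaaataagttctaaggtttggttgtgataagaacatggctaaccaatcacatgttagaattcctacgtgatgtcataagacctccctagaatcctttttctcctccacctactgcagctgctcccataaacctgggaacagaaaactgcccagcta

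The Cacna2d1 window is 80.0% G and C with 42 CpG pairs and 7 GC boxes, of which those near the start overlap or touch. The Casq2 window is 44.7% G and C with 6 CpG pairs, and the Pln window 36.0% with 1. A window of Cacna1c, whose log2 difference was -0.076, is 81.3% G and C with 57 CpG pairs and 6 GC boxes. Its other windows are 51.3% G and C, and those of Jph2 are 63.0% and 63.7%. Whether base composition goes with the differences between groups was not tested. The median over 32851 windows of the same length was 52.7% G and C and 7 CpG pairs. A GC box occurred in 6 of the 11 windows (of Cacna1c, Cacna2d1, Hrc, Jph2 and Ryr2) and in 35.7% of all windows, and Cacna1c has 3 of the 11 windows and Jph2 has 2 that overlap. The MEF2 motif occurred in 1 of 11 (Casq2) and 3.19% of windows, the TATA box in 1 of 11 (Pln) and 13.6%, and the GATA motif in 2 of 11 (Pln and Slc8a1) and 11.2%. The CArG box and the MCAT motif CATTCCT occurred in 0 of 11, and in 1.63% and 5.36% of windows. The E box CANNTG occurred in 10 of 11 and in 72.3% of windows. These matches are letters in a window, not measured binding.

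Genes around the calcium cycle that are not among the 10 were read from a list of 73, of which 72 passed the filter on low counts. At an unadjusted p under 0.05 in edgeR, 7 (9.72%) were higher and 9 (12.5%) lower in MI, where 7.12% and 4.51% of all genes were, and 0 passed an adjusted p under 0.05. DESeq2 called 1 higher (Cacnb3) and 1 lower (Fkbp1a) at an adjusted p under 0.05. Of the 14535 genes to which it gave an adjusted p, it called 2.78% higher and 1.61% lower. The lower count was 2 (2.78%) with library totals or sarcomere scaling, where 1.6% and 1.46% of all genes were lower. In limma on log2(FPKM + 1), 11 (15.3%) were higher and 1 (1.39%) lower, where 12% and 1.82% of all genes were. Both counts also changed when 1 library was left out, as did those of all genes. The median of the list was -0.16, and leaving out MI replicate 1 gave -0.080 and leaving out Sham replicate 2 gave -0.024.

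Among the higher genes were 2 beta subunits of calcium channels, which bind the pore from the cytosol. Cacnb3 was at 2.64 and 1.25 FPKM in MI, against 0.36 and 0.58 FPKM in Sham (log2 difference 1.81 ± 0.41). Its log2 difference was 1.29 without MI replicate 1, the library with lung transcripts, and 2.21 without MI replicate 2. Cacnb1 was at 1.76 and 1.34 FPKM in MI, against 0.67 and 0.92 FPKM in Sham (0.75 ± 0.23). The inositol trisphosphate receptors, which release stored calcium in many cell types, were higher as Itpr3 (0.69 ± 0.17) and Itpr2 (0.49 ± 0.14). So were Stim1, the sensor of store filling, at 0.61 ± 0.18, and Slc8b1, the sodium/calcium exchanger of mitochondria, at 0.67 ± 0.25. Ppp1ca, a catalytic subunit of protein phosphatase 1, which removes phosphate from phospholamban, was at 46.7 and 40.1 FPKM in MI, against 29.1 and 30.9 FPKM in Sham (0.31 ± 0.12). The first 6 of these stood under 3 FPKM in every library, far below the genes of the store. The part of other cells in their levels was not tested.

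Among the lower genes, Fkbp1a encodes FKBP12, a protein that binds ryanodine receptors. It was at 13.8 and 13.9 FPKM in MI, against 16.6 and 21.1 FPKM in Sham (log2 difference -0.66 ± 0.14; DESeq2 adjusted p = 0.0153). Camk2d, the main calcium/calmodulin kinase II of heart, had -0.48 ± 0.13, and Prkar2a, a regulatory subunit of protein kinase A, -0.33 ± 0.12. Ppp1r3a, a targeting subunit of protein phosphatase 1, had -0.45 ± 0.12, and Ppp1cb, another of its catalytic subunits, -0.35 ± 0.13. Cav3, the muscle caveolin, was at 29.4 and 28.2 FPKM in MI, against 38.8 and 33.2 FPKM in Sham (-0.55 ± 0.17).

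The remaining lower genes were Sln, Cacna1d and Ryr3, and each was highest in Sham replicate 2, the library with atrial transcripts. Sln, the atrial inhibitor of the pump, was at 0.10 and 0 FPKM in MI, against 0 and 121 FPKM in Sham, so its groups overlapped and no fold is given. Cacna1d was at 0.14 and 0.08 FPKM in MI, against 0.15 and 0.28 FPKM in Sham. Ryr3 was at 0.04 and 0.02 FPKM in MI, against 0.04 and 0.18 FPKM in Sham. Without Sham replicate 2 their log2 differences were -0.76 for Cacna1d and -0.71 for Ryr3, against -1.20 and -1.94 with all libraries.

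The 5 most abundant genes of the list each differed by less than 2 standard errors between the groups. Tnnc1, the calcium sensor of the thin filament, was at 2075 and 2192 FPKM in MI, against 1956 and 2197 FPKM in Sham (log2 difference -0.17 ± 0.16). S100a1, which binds SERCA2 and the ryanodine receptor, was at 634 and 674 FPKM in MI, against 613 and 596 FPKM in Sham (-0.10 ± 0.16). In limma on log2(FPKM + 1) the sign of both turned, to 0.041 for Tnnc1 and 0.11 for S100a1. Srl, sarcalumenin, which binds calcium in the store, had -0.22 ± 0.14, and Tmem38a, a potassium channel of the store membrane, -0.20 ± 0.14. Hspb6, a small heat shock protein that inhibits protein phosphatase 1, was at 324 and 59.7 FPKM in MI, against 283 and 295 FPKM in Sham. MI replicate 2 alone was low, and without it the log2 difference of -0.87 ± 0.72 became -0.13.

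**Figure D4:**
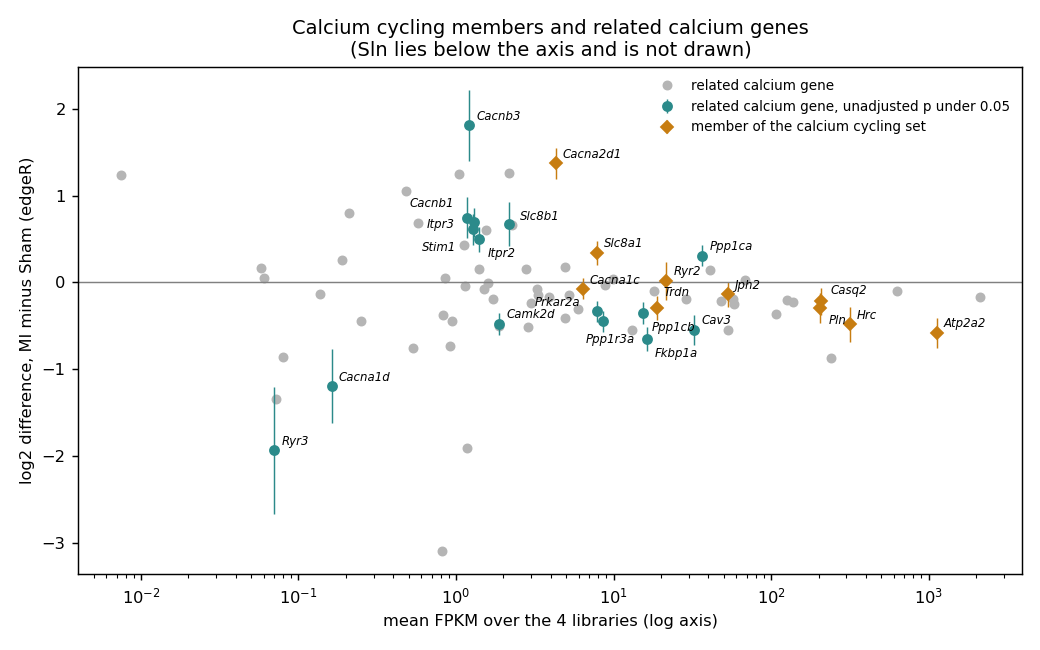
Each point is a gene, by its mean FPKM over the 4 libraries (log axis) and its log2 difference, MI minus Sham, with the standard error for the genes named; diamonds are the 10 calcium cycling genes, circles the related genes (filled green at an unadjusted p under 0.05, grey otherwise), and Sln is not drawn. The abundant genes lie near or below 0 (Atp2a2 at -0.58), and those above 0.4 with an unadjusted p under 0.05 have means under 5 FPKM, among them Cacnb3 at 1.81 and Cacna2d1 at 1.37.

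In the annotation terms of the deposited table, sarcoplasmic reticulum was held by 7 of the 10 genes and by 65 genes in all, and Z disc by 6 of 10 and 136 in all. Sarcoplasmic reticulum membrane was held by 6 of 10 and 35 in all. T-tubule was held by Slc8a1, Cacna1c and Cacna2d1, and by 64 genes in all. By profile over the 4 libraries, the genes nearest to Atp2a2 among 2503 with a mean of at least 10 FPKM were Spryd4, Gm16199, Gm10171, Vwa8 and Hjv. Their root mean square distance on the log2(FPKM + 1) scale, each gene centred on its own mean, was 0.012 to 0.032. With 4 libraries such closeness is a description only. Hrc was the calcium cycling gene nearest to Atp2a2 (place 80, distance 0.097), followed by Trdn (place 395), Pln (487), Casq2 (1004), Jph2 (1048) and Ryr2 (1634), while Slc8a1, Cacna1c and Cacna2d1 were under 10 FPKM and were not placed.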

How the data were processed

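Each gene row of the authors' table holds a position, annotation and, per library, a count and an FPKM. FPKM columns are named so per the file headers, and FPKM is scaled for length and depth. The deposited counts are estimated counts in whole numbers, and low values pile up at multiples of 4 (1174 genes at 4 and 331 at 3 in MI replicate 1), for a reason no source used here gives. Per the submitters' processing notes, StringTie 1.3.4d, HISAT2 2.0.4, UMI-tools and cutadapt 1.9 were among the tools, with no role or order. Genome build and strand use were not given in the sources used here. GENCODE matching found 99.5% of identifiers in GENCODE M21 (GRCm38), 93.8% with the same start and end, as do 8 of the 10 calcium cycling genes.

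Groups came from the sample titles. Nothing states that replicates came from separate animals, so p-values measure the spread between libraries, which may be technical. After filterByExpr, with a minimum count of 10 and a minimum total of 15, 18475 genes were left, scaled by TMM and tested with edgeR 4.0.16 (R 4.3.3; quasi-likelihood, 2-sided, group only, Benjamini-Hochberg over all genes, threshold 0.05; biological coefficient of variation 0.368). Alternatives used DESeq2 1.42.0 and limma 3.58.1 on log2(FPKM + 1) or log2(FPKM + 0.1). CPM are TMM-scaled. Ratios of FPKM within a library (18) were compared by an exact permutation test. The steps were tested on simulated counts. Intervals and SE cover these libraries only. The members, the related list, the markers and the rule for named genes (all members; related genes at an unadjusted p under 0.05 and the 5 of highest mean FPKM; the 5 nearest profiles) were chosen with earlier results of these data known.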

Additional observations from a re-analysis of the deposited data

How the results depend on the processing

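Leaving out the transcripts of mitochondrial DNA, RLE size factors, no filter on low counts and counts divided by 4 changed no direction among the 10 genes and no count or median below by more than the limits used. Genes called over the whole table numbered 0 in edgeR, 638 in DESeq2, and 0 to 14 with 1 library left out (14 without Sham replicate 1). Genes higher at an unadjusted p under 0.05 numbered 1316, and 2502 with sarcomere scaling, 2315 with library totals (chosen after seeing the data), 2223 and 2190 in limma with a pseudocount of 1 and 0.1, and 432 to 1917 with 1 library left out (432 without MI replicate 1, 788 without MI replicate 2). Lower genes numbered 834, and 269, 296, 336 and 344 in the same order, and 378 to 1209 (378 and 405 without those libraries). The share of higher genes was 61.2% with TMM, 90.3% with sarcomere scaling, 88.7% with library totals and 86.9% in limma with a pseudocount of 1.

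The related calcium genes numbered 7 higher and 9 lower. With sarcomere scaling 2 were lower and with library totals 2, and limma gave 11 higher and 1 lower with a pseudocount of 1 and 1 lower with 0.1. With 1 library left out 1 to 8 were higher and 1 to 14 lower. The median of the 10 genes was 0.074 with sarcomere scaling, 0.039 with library totals and 0.037 in limma with either pseudocount, and -0.28 to -0.064 with 1 library left out. The median of the related genes was 0.088, 0.058, 0.022 and 0.043 in the same settings, and -0.19 to -0.024 with 1 library left out. Ryr2 ranged over -0.22 (Sham replicate 2 left out) to 0.31, and came to -0.056 with MI replicate 2 left out. Casq2 was 0.032 with sarcomere scaling. Cacna1c was 0.18 with sarcomere scaling, 0.15 with library totals and 0.13 and 0.14 in limma, and Jph2 was 0.12, 0.083, 0.076 and 0.077. With 1 library left out the ratio differences ranged over -0.60 to 0.079 for Casq2 to Ryr2, -0.43 to 0.069 for Jph2 to Ryr2, -0.37 to 0.14 for Cacna1c to Ryr2 and -0.094 to 0.095 for Casq2 to sarcomere transcripts (-0.014 without MI replicate 2). The cause of these changes was not tested.

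The labels number replicates 1 and 2 in each group, and the deviations of same-numbered libraries had a correlation of -0.056 across genes. Each group gives a single difference between replicates, and single libraries hold lung or atrial transcripts. The correlation therefore cannot tell whether same-numbered libraries were paired. With the replicate block 1002 genes were higher and 552 lower at an unadjusted p, 5 related genes were lower, and 0 of the 10 calcium cycling genes was lower, against 1 (Atp2a2) without the block. For the Pln to Atp2a2 ratio, the mean difference within numbered pairs must equal the difference of group means. This pairing therefore could not change its log2 difference of 0.27. Estimated counts and FPKM + 1 also gave 0.27 but could hardly differ, since gene length nearly cancels and both levels lie far above 1. With 1 library left out the ratio's log2 difference was 0.14 to 0.41.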

Other observations

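Some calcium genes outside the rule for named genes did not reach an unadjusted p under 0.05 in edgeR and are given here, chosen after their values were seen. Atp2b4, a calcium pump of the plasma membrane, was at 3.46 and 2.87 FPKM in MI, against 0.51 and 1.82 FPKM in Sham (log2 difference 1.26 ± 0.55). Atp2a3, a pump of the endoplasmic reticulum in non-muscle cells, was at 3.65 and 2.25 FPKM in MI, against 1.3 and 1.9 FPKM in Sham (0.66 ± 0.26). Fkbp1b, which encodes FKBP12.6, the form that binds the ryanodine receptor of heart, was at 0.69 and 0.69 FPKM in MI, against 0.33 and 0.22 FPKM in Sham (1.05 ± 0.57), while Fkbp1a went the other way. Jph1, the junctophilin of skeletal muscle, was at 2.35 and 2.79 FPKM in MI, against 2.76 and 3.62 FPKM in Sham (-0.51 ± 0.21). On the FPKM scale its groups overlapped, while those of the other 3 genes did not. The CPM of Jph1 were 11.2 and 14.9 in MI, against 17.1 and 20.2 in Sham, and did not overlap.

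Single libraries stood apart in some genes of the list. Cacna1h, a T-type channel, was at 0.64 and 0.45 FPKM in MI, against 0.56 and 3.07 FPKM in Sham, and Cacna2d2 at 0.12 and 0.24 FPKM in MI, against 0.14 and 2.74 FPKM in Sham. The high Sham value of both was in replicate 2, the library with atrial transcripts. Rrad, which restrains the L-type channel, was at 48.0 and 47.2 FPKM in MI, against 75.8 and 41.8 FPKM in Sham.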
